A study of Mus musculus with 12 samples.

Results

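Among 12 RNA libraries of mouse oocytes, 4 held almost no messenger RNA for Mos and 7 held it at a high level, and these 11 libraries are compared here. Each library came from a pool of 4 oocytes, taken at day 0.5 after females had mated with vasectomized, and therefore sterile, males. Before mating the females had eaten a control diet (CD) or a high-fat, high-calorie diet (HFD) over 9 weeks, with 6 libraries per diet, and all animals ate the CD while they mated. The labels give both feeds the product code D12492 and call the HFD a modified version, which leaves the make-up of the CD uncertain. They name no strain, age or genotype and do not tie pools to females, so the spread between libraries may be partly technical.

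The members were chosen by their measured Mos and Zp3 levels, and the classes are not groups of the study. A library was Mos-low where Mos stood below 20 CPM (a gene's counts scaled to 1000000 gene counts per library), and Mos-high where Mos reached at least 50 CPM with the zona pellucida gene Zp3 below 1000 CPM. Mos-low held HFD replicates 1 and 2 and CD replicates 2 and 4. Mos-high held HFD replicates 4, 5 and 6 and CD replicates 1, 3, 5 and 6. The highest Mos-low value was 8.41 CPM and the lowest Mos-high value 115 CPM, so no library lay near the limits of 20 and 50 CPM. HFD replicate 3 belonged to neither class, with Mos at 914 CPM and Zp3 at 4704 CPM, against at most 200.1 CPM of Zp3 in the 11 libraries. Because the same libraries chose the classes, differences between them are given as a description, with no p-value for any gene.

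Mos is the oocyte kinase that switches on MAP kinase signalling. It is the core of cytostatic factor, the activity that holds an ovulated egg at the metaphase of its second meiotic division until fertilisation. An egg at that point makes almost no new RNA and lives on messages stored while it grew. Many stored messages carry a cytoplasmic polyadenylation element (CPE) near the end of the 3′ untranslated region. The binding protein CPEB1 uses this element to keep the poly(A) tail short, and later to lengthen it and start translation. Other stored messages are shortened and removed as the egg matures and is activated.

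Mos, Zp3, Gdf9, H1foo, Fth1 and the genes with the largest differences were chosen with these data known. Of those lower in Mos-low, 7 of 13 searched held the CPE (TTTTAT or TTTTAAT as DNA) near the transcript's end. Of those higher, 0 of 11 held it, and 21.05% of all tested genes searched held it. The sites of 6 of the 7 genes are shown, with Tet3 added from the DNA methylation genes. The site of Efna1, which ends 2 bases before the end of the transcript, is not shown. Each line gives 30 bases of the annotated transcript, 5′ to 3′ on the transcript's strand, and capitals mark the CPE.
Gdf9: ctgtggTTTTATgtgacggaagaataaact
H1foo: tgaagcTTTTATtgtctaataagctgtcac
Plat: tttataTTTTAATctattttagtttttact
Bub1b: tgtgtaTTTTATaataaaatagtttttgtt
Tpra1: atctattTTTTAATaaaaataaaaagagta
Rnf139: gtacctTTTTATtcagtgcatttttctgta
Tet3: aataaaTTTTATatttattttttgcactca
In build mm10 the sites lie at chr11:53437860-53437889 (Gdf9, plus strand), chr6:115950163-115950192 (H1foo, plus), chr8:22782750-22782779 (Plat, plus), chr2:118641559-118641588 (Bub1b, plus), chr6:88912202-88912231 (Tpra1, plus), chr15:58902323-58902352 (Rnf139, plus) and chr6:83362375-83362404 (Tet3, minus). All 7 are in the 3′ untranslated regions of GENCODE M21. In Gdf9 the element ends 33 bases before the end of the transcript and in Bub1b 21 bases before it. The annotated Mos transcript held no such element in its last 100 bases.

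Across genes, the same element was more frequent among those lower in Mos-low than among those higher. A gene is called apart where its fitted difference was at least 2-fold and the CPM ranges of the classes did not overlap. Of 10479 genes tested, 1674 were apart (16.0%), 838 of them higher in Mos-low (8.0%) and 836 lower (7.98%). The last 100 bases of the transcript held a CPE in 250 of 795 lower genes with a searchable end (31.4%), in 61 of 762 higher genes (8.01%) and in 2028 of all 9636 tested genes searched (21.05%). Of the ends of all 18910 genes in the table that could be searched, 18.1% held it. Among tested genes with a CPE 12.3% were apart and lower and 3.01% apart and higher, against 7.16% and 9.21% of those without. Having the element thus did not by itself place a gene among the lower ones. The metaphase arrest genes Fbxo5, Ccnb3, Cks1b, Cks2, Wee2, Ppp2r1a and Ccne1 held it and were not apart. The gap of 23.4 percentage points between lower and higher genes lay between 22.0 and 23.7 when any single library was omitted, and was 11.5 points over the last 50 bases and 28.4 over the last 200.

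Other short motifs separated the genes less. The poly(A) signal AATAAA was present in 71.9% of lower and 67.2% of higher genes, and the Pumilio motif TGTANATA in 5.28% and 4.20%. The AU-rich motif ATTTA was present in 27.9% of lower and 17.3% of higher genes. The reverse complement of the CPE (ATAAAA or ATTAAAA) was present in 43.8% and 32.9%. It has A where the CPE has T, so it does not match the T content of the CPE, and it can overlap AATAAA. The transcript strand alone was searched for each motif.

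**Figure D1:**
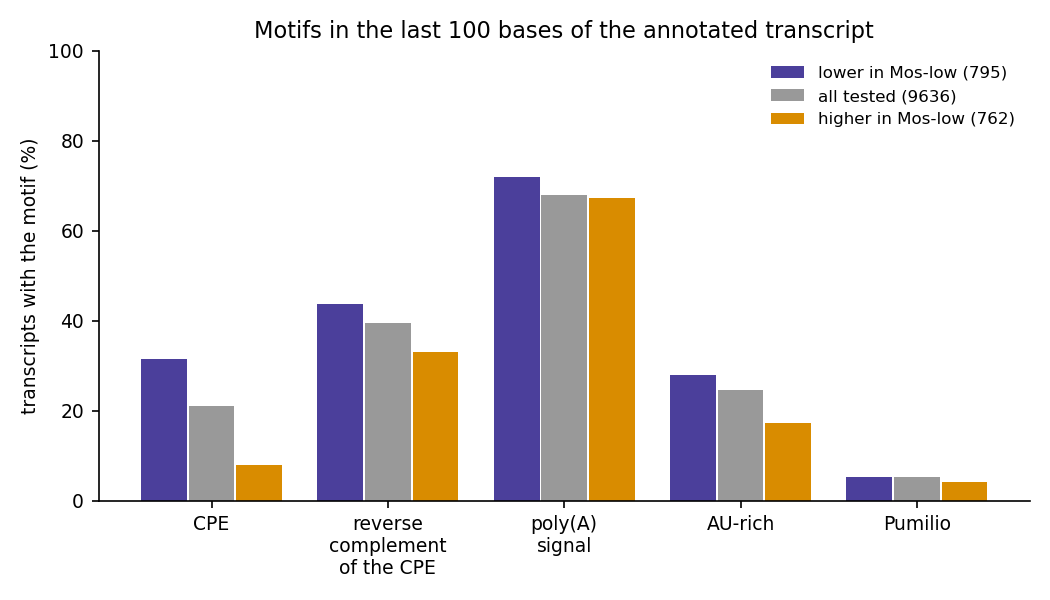
Percentage of transcripts with each motif in their last 100 bases, for the genes at least 2-fold lower in Mos-low without overlap (795 searched), all tested genes (9636) and the genes at least 2-fold higher (762). The CPE bars stand at 31.4%, 21.05% and 8.01%, the widest gap among the 5 motifs.

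The number of sites went with the size of the difference. Genes without a CPE had a median log2 difference (Mos-low minus Mos-high) of −0.01, genes with 1 site −0.29, and genes with 2 or more −0.45, over 7608, 1702 and 326 genes. In CD taken alone the medians were −0.08, −0.30 and −0.59. In HFD they were 0.05, −0.30 and −0.32, so that 2 or more sites hardly differed from 1. Ends of the higher genes were richer in G and C, with a median of 40% against 32% for lower genes, and held less T, at 30% against 35%. Among genes in the tertile with the least T, the median was −0.33 with a CPE and 0.15 without. In the tertile with the most T it was −0.34 with a CPE and −0.19 without. Lower genes also had longer 3′ untranslated regions than higher genes, with medians of 1273 and 774 nt, and the CPE values were not split by length. The cDNA kit primes on poly(A) tails, so the amount of a message and the length of its tail cannot be told apart in these counts.

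Depth overlapped between the classes. Gene counts summed to between 8556396 and 13793598 in the Mos-low libraries and between 9105786 and 11493576 in the Mos-high libraries, and 12344 to 13052 and 12229 to 13008 genes had a count. Pairs of libraries correlated at a median r of 0.931 within Mos-low (6 pairs), 0.922 within Mos-high (21 pairs) and 0.848 between classes (28 pairs). The leading principal component took 41.0% of the variance and placed Mos-low at −85.9 to −67.4 and Mos-high at 22.8 to 77.8. In HFD replicates 1, 2, 4 and 6 every count was even, so the even-count libraries are 2 of the 4 Mos-low and 2 of the 7 Mos-high libraries. Within the even-count libraries the log2 difference of Gdf9 was −3.66 and that of Fth1 3.48, and within the others −3.60 and 3.48.

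The genes that define the classes lay at separate levels. Mos (chromosome 4, 3870657 to 3872105, mm10) stood at 8.41, 4.07, 3.96 and 3.74 CPM in the Mos-low libraries, in the order HFD 1, HFD 2, CD 2 and CD 4, which is kept below. In Mos-high its lowest, median and highest levels were 115, 409 and 1453 CPM. The log2 difference was −6.79 ± 0.66 (SE; n = 4 and 7, as throughout). Each library pooled 4 oocytes, so levels in single oocytes were not measured.

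Gdf9, the growth factor through which the oocyte directs the surrounding granulosa cells (chromosome 11, 53431023 to 53437904), was the steadiest. Its levels were 551, 558, 559 and 553 CPM in Mos-low and 3689, 6608 and 8233 CPM at the lowest, median and highest of Mos-high, a log2 difference of −3.56 ± 0.28. The 4 Mos-low pools, from both diets, lay between 551 and 559 CPM, and the lowest Mos-high pool was far above them. H1foo, the linker histone of the oocyte (chromosome 6, 115944938 to 115950236), stood at 3167, 2189, 2598 and 1956 CPM in Mos-low. In Mos-high its levels were 10187, 13955 and 20980.4 CPM, a log2 difference of −2.60 ± 0.27. Zp3, a sperm-binding protein of the egg coat (chromosome 5, 135980099 to 135988624) and part of the rule, stood at 13.5, 12.02, 11.7 and 10.3 CPM against 48.2, 117 and 200.1 CPM, or −3.30 ± 0.33.

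Fth1, the heavy chain of the iron store ferritin (chromosome 19, 9980598 to 9985098), went the other way. It stood at 810.4, 493, 380.1 and 392 CPM in Mos-low and at 9.74, 51.9 and 71.2 CPM in Mos-high, a log2 difference of 3.50 ± 0.37. All 4 Mos-low pools lay above every Mos-high pool, and HFD replicate 1 was the highest. Fth1 has processed pseudogenes, and reads aligned to more than 1 place were not counted for genes, so its level is uncertain. The oocyte genes Bmp15 and Btg4 overlapped between the classes. Bmp15, the partner of Gdf9, stood at 441 to 769 CPM in Mos-low and 190.0 to 1898 CPM in Mos-high, and Btg4, the adaptor of maternal mRNA deadenylation, at 11037 to 13334 and 8382 to 14398 CPM.

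**Figure D2:**
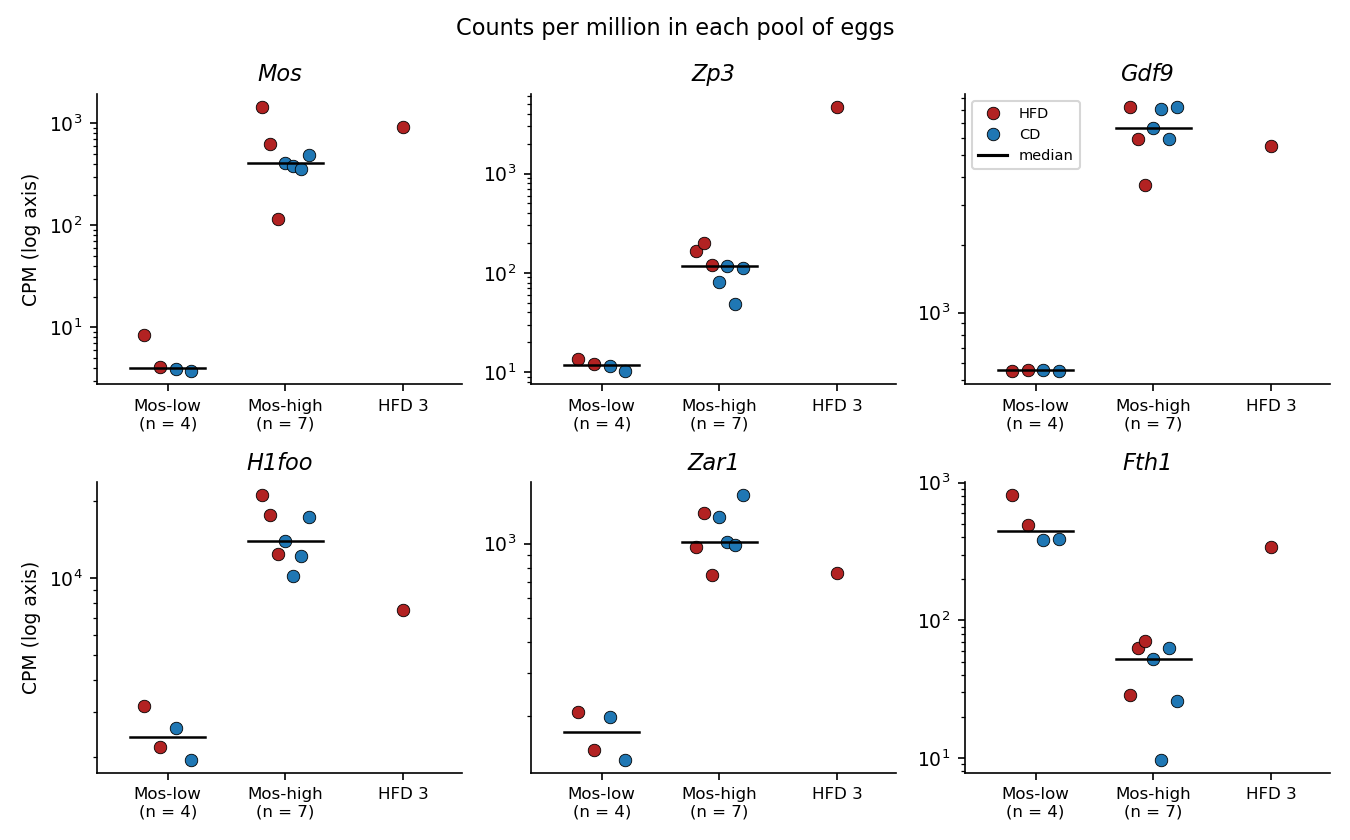
Level of Mos, Zp3, Gdf9, H1foo, Zar1 and Fth1 in each library in CPM on a log axis, by class, with the class median as a bar, points coloured by diet and HFD replicate 3 shown apart. For Mos, Zp3, Gdf9, H1foo and Zar1 the 4 Mos-low libraries lie below all 7 Mos-high libraries, and for Fth1 they lie above them at 380.1 to 810.4 CPM.

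Among the genes with the largest differences, Plat, tissue-type plasminogen activator, a message long known as stored and then translated at maturation, stood at 36.0, 27.2, 30.2 and 20.3 CPM in Mos-low and 233, 1233 and 2947 CPM in Mos-high (−5.59 ± 0.75). Bub1b, which encodes the checkpoint kinase BubR1, stood at 18.0, 12.4, 17.3 and 18.0 CPM against 256, 559.5 and 1547 CPM (−5.31 ± 0.38). P4hb, a protein disulfide isomerase, had −5.10 ± 0.42 and Arcn1, a coat subunit of Golgi vesicles, −5.03 ± 0.51. The splicing factor gene Sf3b5 had −5.06 ± 0.39 and the ubiquitin ligase gene Rnf139 −5.03 ± 0.49. Efna1, an ephrin, and Tpra1 had −5.25 ± 0.63 and −5.18 ± 0.61, which moved to −6.08 for Efna1 without HFD replicate 1 and to −4.53 for Tpra1 without HFD replicate 4.

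Sumo2, the ubiquitin-like modifier, stood at 0.290, 0.185, 0.198 and 0.234 CPM in Mos-low, which is at most 4 reads per library, and at 19.6 to 60.6 CPM in Mos-high. So few reads give no firm ratio, and Sumo2 also has processed pseudogenes. Nfkbiz, an inhibitor-like regulator of NF-kB, was likewise at or below 1.19 CPM in Mos-low and at 6.70 to 124 CPM in Mos-high.

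In the other direction, Otub1, a deubiquitinase, stood at 97.7, 102, 58.5 and 38.2 CPM in Mos-low and 1.15, 3.65 and 5.05 CPM in Mos-high (4.32 ± 0.35). Timm17a, part of the inner-membrane protein import channel of mitochondria, stood at 187, 169, 130.4 and 158 CPM against 3.44, 12.9 and 14.5 CPM (3.92 ± 0.30). For both genes the lowest Mos-low library lay well above the highest Mos-high library.

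The 12 largest also included Msra, a methionine sulfoxide reductase (3.80 ± 0.38), Ube2a, a ubiquitin-conjugating enzyme (3.61 ± 0.33), Ddx58, the RNA sensor RIG-I (3.61 ± 0.31), Pus3, a pseudouridine synthase (3.60 ± 0.40), Atp6v1e1, a proton pump subunit (3.52 ± 0.31), Ttc33 (3.50 ± 0.35), Zfp951 (3.49 ± 0.37) and Mrps7, a mitochondrial ribosomal protein (3.48 ± 0.29). Fth1 was among them too. At least a 4-fold difference was reached by 379 of the higher and 458 of the lower genes, and the median over all tested genes was −0.06.

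Most metaphase arrest genes other than Mos overlapped between the classes. For this and the lists below, the shares over all tested genes are 8.0% apart and higher and 7.98% apart and lower. Of 33 listed genes 31 were tested, 21 above 0 and 10 below, with a median of 0.16. Without Mos, which the rule used, the median of the other 30 was 0.19, with 2 apart and higher and 1 lower. Mos and Bub1b were apart and lower, and Cdc25b and Ttk apart and higher. Ttk, the checkpoint kinase Mps1, stood at 248, 318, 548 and 504 CPM in Mos-low and 40.8, 61.3 and 105 CPM in Mos-high (2.70 ± 0.21). Cdc25b, the phosphatase that activates Cdk1 at the resumption of meiosis, stood at 17.4, 15.2, 16.1 and 19.4 CPM against 0.522, 1.95 and 5.11 CPM (2.97 ± 0.42). The checkpoint kinases Bub1b and Ttk thus differed in opposite directions.

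Downstream of Mos, the kinases that carry its signal overlapped between the classes. Map2k1, the MAP kinase kinase, had 0.26 ± 0.21, the MAP kinase gene Mapk3 0.36 ± 0.33 and the ribosomal S6 kinase gene Rps6ka3 0.88 ± 0.30. Fbxo43, whose product Emi2 blocks the anaphase-promoting complex in cytostatic arrest, stood at 149.6, 204, 296 and 311 CPM in Mos-low and 165, 264 and 439 CPM in Mos-high (−0.10 ± 0.21). Ccnb1, cyclin B1, had 0.51 ± 0.25, and Ccnb2 0.52 ± 0.25. In the even-count libraries alone these 2 were at −0.06 and −0.18. The inhibitory kinase Wee2 had 0.22 ± 0.25 and the activator of the complex, Cdc20, 0.14 ± 0.21. The other members, all with overlapping levels, lay between −0.63 for Map2k2 and 1.14 for the calmodulin gene Calm2, with Rps6ka1 at 0.00 and Cdk1, whose level was a few CPM, at −0.21. Plk1, a mitotic kinase, had −1.04 ± 0.28 and Fbxo5, which encodes Emi1, −1.27 ± 0.35, with overlapping levels.

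**Figure D3:**
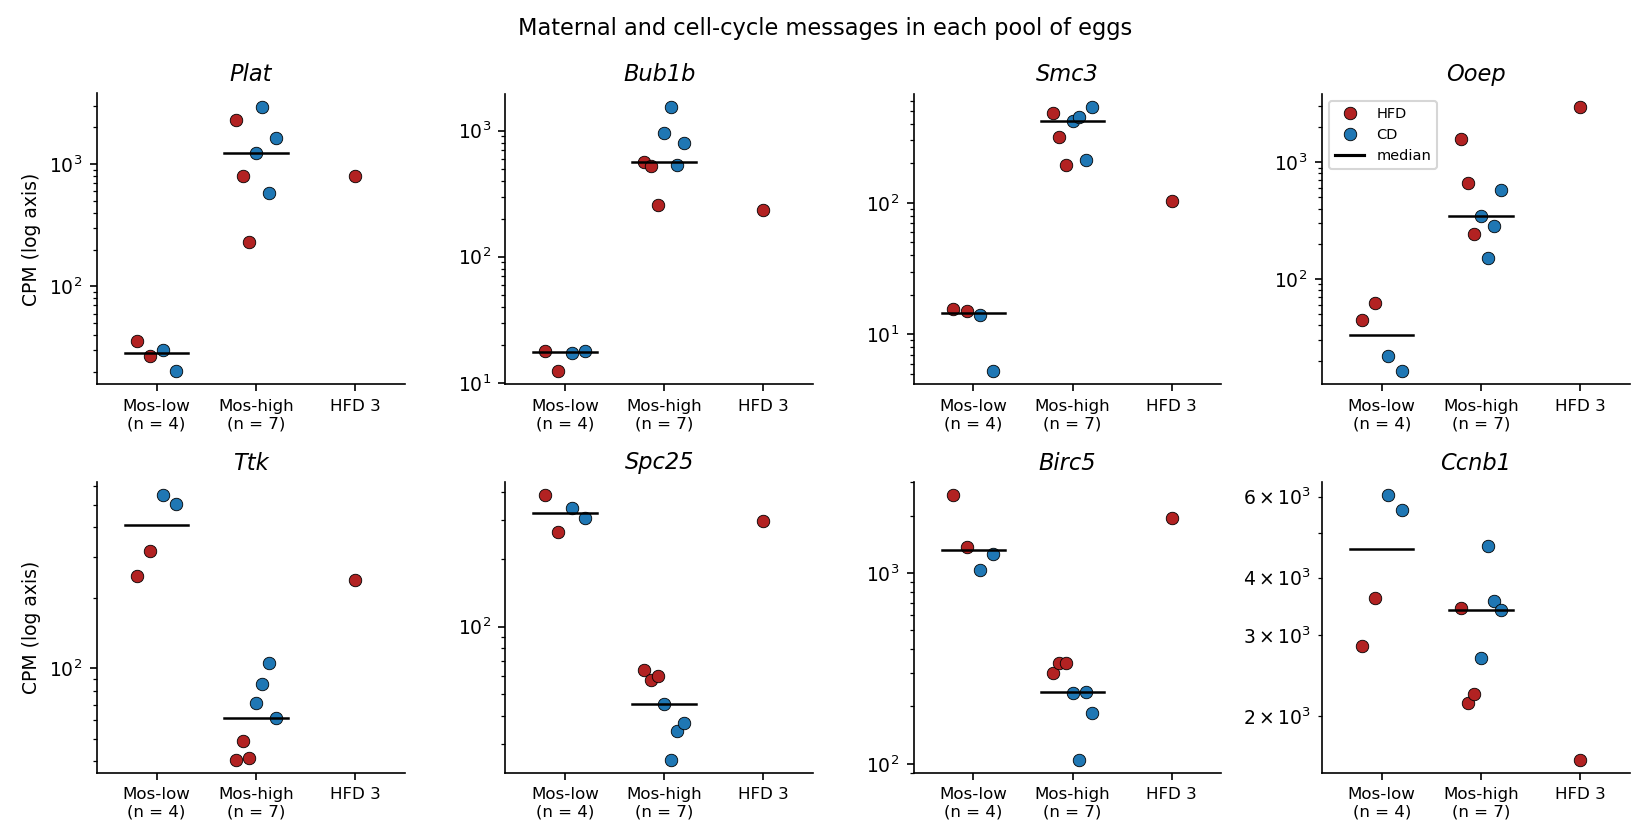
Levels in CPM on a log axis of 8 maternal and cell-cycle genes in each Mos-low and Mos-high library and in HFD replicate 3, with the class median as a bar and points coloured by diet. Plat, Bub1b, Smc3 and Ooep are lower and Ttk, Spc25 and Birc5 higher in all 4 Mos-low libraries, while Ccnb1 overlaps.

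Of 30 spindle and kinetochore genes tested, 4 were apart and higher and 3 apart and lower (8.0% and 7.98% over all genes), with a median of −0.22. Spc25, a subunit of the Ndc80 complex that binds microtubules, stood at 385, 266, 339 and 304 CPM in Mos-low and 25.6, 45.1 and 64.0 CPM in Mos-high (2.85 ± 0.25). Birc5, survivin of the chromosomal passenger complex, stood at 2559, 1373, 1035 and 1254 CPM against 105, 237 and 339 CPM (2.62 ± 0.25). Smc3, a core ring subunit of cohesin, stood at 15.7, 15.2, 14.04 and 5.26 CPM against 194, 421 and 539 CPM (−4.92 ± 0.40). The remaining members apart, named after their values were seen, were Mis18a (1.66) and the cohesin protector gene Sgol1 (1.15), higher, and the kinesin gene Kif4 (−1.30) and the separase gene Espl1 (−1.34), lower.

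Of 17 secreted-factor and egg-coat genes tested, 13 were below 0, 5 were apart and lower (7.98% over all genes) and 1 apart and higher (8.0%), and the median was −0.84. These counts include Zp3, which the rule used, and without it 4 of 16 were apart and lower and the median was −0.66. Beside Gdf9, Zp3 and Plat, the lower members were Pla2g12b, which is near 0 in several libraries, and Astl (−1.94), the protease that hardens the coat after fertilisation. Folr4, better known as Juno, the egg's receptor for the sperm protein Izumo, was higher at 1.57. Astl and Folr4 are named after their values were seen, as are Zp1 and Zp2. These 2 coat genes overlapped between the classes, with Zp2 at 31.9 to 67.0 CPM in Mos-low and 29.4 to 82.0 CPM in Mos-high (−0.14 ± 0.29), and Zp1 at −1.15 ± 0.44.

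Among oocyte transcription factor genes, Lhx8, needed for early follicle growth, stood at 185, 218, 209 and 248 CPM in Mos-low and 25.0, 37.6 and 45.4 CPM in Mos-high (2.58 ± 0.23). Pou5f1, the pluripotency factor Oct4, stood at 188, 195, 209 and 188 CPM against 40.6, 66.0 and 124 CPM (1.54 ± 0.23). Sall4, another pluripotency factor, stood at 7.83, 8.14, 7.62 and 4.09 CPM against 53.5, 124 and 154 CPM (−3.92 ± 0.37). With Nobox (1.47) higher and Kit (−1.50) lower, both named after their values were seen, 3 were apart and higher and 2 apart and lower of 16 tested (8.0% and 7.98% over all genes).

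Maternal-effect genes, whose products the early embryo needs, held 5 members apart, all lower, of 34 tested (7.98% over all genes), with a median of 0.04. Ooep, a scaffold of the subcortical maternal complex, stood at 44.5, 62.3, 21.8 and 16.2 CPM in Mos-low and 149.8, 347 and 1565 CPM in Mos-high (−4.08 ± 0.51). Zar1, an RNA-binding protein of the egg, stood at 207, 146, 198 and 133 CPM against 749, 1017 and 1571 CPM (−2.68 ± 0.26). Trim28, a chromatin repressor that protects imprints, stood at 17.7, 17.2, 19.3 and 17.6 CPM against 57.3, 80.5 and 216 CPM (−2.37 ± 0.31). Tle6 (−1.57) and Khdc3 (−1.33) of the same complex as Ooep were also lower, and its member Nlrp5, at −0.01 ± 0.31, was not; these 3 are named after their values were seen.

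Of 34 genes that store maternal messages or translate them, 4 were apart and higher and 4 apart and lower (8.0% and 7.98% over all genes), with a median of 0.03. Eif4e1b, the oocyte form of the cap-binding factor, stood at 176, 262, 157 and 134 CPM in Mos-low and 16.3, 34.4 and 44.4 CPM in Mos-high (2.56 ± 0.26). Lsm14b, a repressor found in messenger ribonucleoprotein particles, had −2.51 ± 0.45. The somatic cap-binding factor Eif4e (1.40), named after its value was seen, was higher as well, and so were Paip2 (1.88) and Rbpms2 (1.15). Igf2bp2 (−2.31), an RNA-binding protein named in the same way, was lower. Cpeb1, which binds the CPE, was not apart, at 14.1 to 46.7 CPM in Mos-low and 29.3 to 159 CPM in Mos-high (−1.09 ± 0.35).

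Of 28 decay genes, 21 were below 0, 4 apart and lower and 1 apart and higher (7.98% and 8.0% over all genes), with a median of −0.19. Tob2, an adaptor of the CCR4-NOT deadenylase, had −2.74 ± 0.50. Pabpn1l, the egg's nuclear-type poly(A)-binding protein, stood at 66.0, 153, 182 and 157 CPM in Mos-low and 375, 533 and 1188 CPM in Mos-high (−2.14 ± 0.35). Ythdf2, the reader that removes methylated messages, had −1.44 ± 0.25. Cnot11 (−1.42) and the decapping enzyme gene Dcp2 (1.14) are named after their values were seen.

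In the linker histone and chaperone list 3 of 25 were apart and lower, H1foo among them, and 1 apart and higher (7.98% and 8.0% over all genes), with a median of −0.16. Chaf1b, a subunit of the chromatin assembly factor, stood at 4.44 to 5.34 CPM against 0 to 2.53 CPM (2.39 ± 0.79), levels that rest on few reads. In the DNA methylation list 3 of 16 were apart and lower and 1 apart and higher, with a median of −0.92. Tet3, the oxygenase that removes methylation from the paternal genome, stood at 124, 216, 198 and 131 CPM in Mos-low and 346, 528 and 1374 CPM in Mos-high (−1.89 ± 0.30). Its highest Mos-low library was below its lowest Mos-high library, and it carries the CPE shown above.

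Of 73 tested genes for oxidative phosphorylation (OXPHOS), 43 were above 0, 6 apart and higher and 2 apart and lower (8.0% and 7.98% over all genes), with a median of 0.36. Atp5j2, a subunit of ATP synthase, stood at 221, 98.2, 75.6 and 62.1 CPM in Mos-low and 2.29, 8.07 and 20.02 CPM in Mos-high (3.46 ± 0.34), and Ndufs4 of complex I had −2.56 ± 0.32. Of 30 proteasome genes 5 were apart and higher and 2 apart and lower (again 8.0% and 7.98% over all genes), with Psmd6 and Psmc5 of the regulatory particle at 2.30 and 1.98 and the core subunit gene Psma5 at −3.78. Of 59 ribosomal protein genes 2 were apart and higher and 2 apart and lower, with Rpl13 at −3.49 (−4.25 without HFD replicate 1) and Rps15a at −3.18, counts that processed pseudogenes make uncertain. The medians of these 2 lists were 0.03 and 0.09.

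The smaller lists are read against the same 8.0% apart and higher and 7.98% apart and lower. Beside Fth1, 1 of 15 iron genes was apart, the iron chaperone and RNA-binding gene Pcbp2 (−2.32), with a list median of −0.22. Of 18 apoptosis and DNA-damage genes 2 were higher and 2 lower, with a median of 0.03. Bax, an effector of mitochondrial cell death, stood at 28.1, 37.0, 26.4 and 21.6 CPM against 4.87, 6.82 and 7.67 CPM (2.08 ± 0.27). None of 13 heat-shock and immediate-early genes was apart, with a median of 0.12. Early-embryo genes, of which 16 of 38 were tested, had a median of −0.53 and 2 members apart and lower, among them Btg1, an antiproliferative factor (−4.63 ± 0.40).

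**Figure D4:**
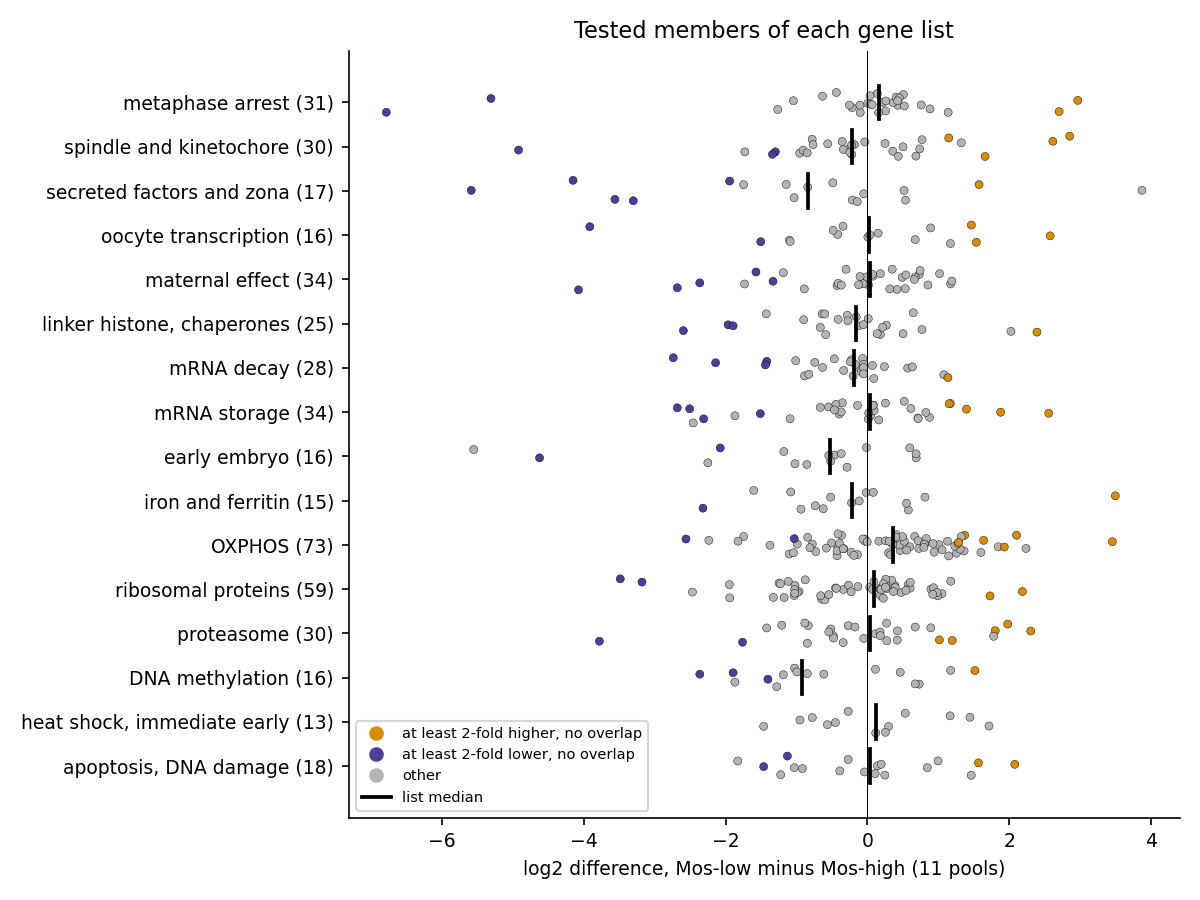
Log2 difference (Mos-low minus Mos-high) of every tested member of 16 gene lists, with members at least 2-fold apart without overlap in colour and the list median as a bar. Most members lie near 0, and most lists hold coloured members on both sides of 0, with medians from −0.92 for DNA methylation to 0.36 for OXPHOS.

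The class difference can be taken separately in each diet, from libraries that the diets do not share. In CD (2 against 4 libraries) and HFD (2 against 3), the log2 differences correlated across the 10479 tested genes at r = 0.69 and rho = 0.67, a description across genes that are not independent, with the classes set by Mos in both. The sign was the same for 73.4% of genes. For Gdf9 the differences were −3.58 in CD and −3.54 in HFD, for H1foo −2.45 and −2.76, for Fth1 3.49 and 3.50, for Plat −5.89 and −5.28, and for Ttk 2.81 and 2.58. The genes apart had medians of 1.92 in CD and 1.86 in HFD where higher, and −2.18 and −2.08 where lower. Their common direction is fixed by how they were chosen.

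**Figure D5:**
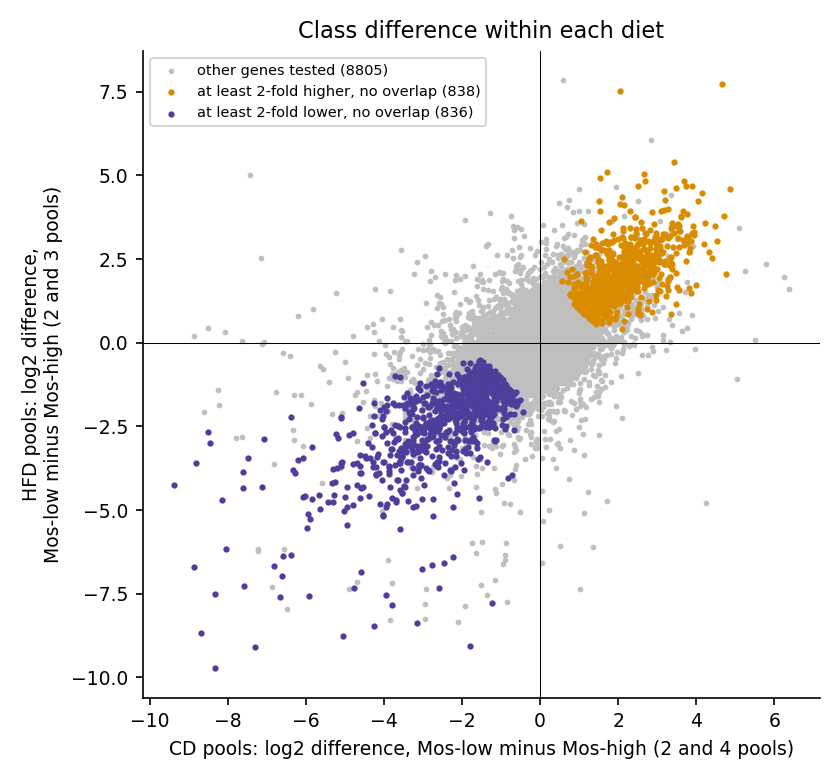
Log2 difference (Mos-low minus Mos-high) of each tested gene in the CD libraries (2 and 4, x axis) and the HFD libraries (2 and 3, y axis). Points follow the diagonal, with r = 0.69 over 10479 genes.

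A test of diet by class found the difference to depend on diet for 2 of 10479 genes (0.0191%; edgeR interaction, adjusted p under 0.05), with 526 genes at an unadjusted p under 0.05 and 10 genes by DESeq2. Without the filter on low counts 33 genes were called higher and 22 lower. The classes in this test were set from Mos and Zp3 of the same libraries, with 2 Mos-low libraries in each diet. Its p-values carry that limit. Blvra, biliverdin reductase, stood at 31.2 and 31.8 CPM in the HFD Mos-low libraries and at 437, 452 and 458 CPM in the HFD Mos-high libraries. In CD it stood at 148 and 189 against 217 to 383 CPM, so that the log2 difference was −3.95 in HFD and −0.72 in CD, a change of −3.23 ± 0.46 (edgeR, adjusted p = 0.00588). Btla, a lymphocyte co-receptor gene, stood at 0.989 and 1.75 CPM against 35.3 to 91.1 CPM in CD and at 32.8 and 53.6 against 7.27 to 21.4 CPM in HFD. Its change was 6.72 ± 0.84 (edgeR, adjusted p = 0.00214), and the classes lay in opposite order in the 2 diets. Without CD replicate 2 no gene was called in the direction of Btla (2 without HFD 4, CD 3 or CD 5, and 3 without CD 4), and without HFD replicate 1 none in that of Blvra (2 without CD 4).

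Diet itself was tested in the 11 libraries with class as a covariate. The rule did not use the diet labels. It did leave out HFD replicate 3 by its Zp3 level and set the class term from Mos and Zp3, so the test is not independent of the rule. With edgeR's quasi-likelihood test and Benjamini-Hochberg adjustment, 717 genes passed (6.84%), 497 higher (4.74%) and 220 lower (2.1%) in HFD, and 2595 had an unadjusted p under 0.05. With scaling by total counts in place of trimmed means (TMM) the balance turned, to 202 higher and 330 lower, and DESeq2 called 851 and 560. Without the class term no gene passed, with 1729 at an unadjusted p under 0.05. The biological coefficient of variation was 46.0% with class and diet in the model and 60.7% with diet alone. Without HFD replicate 1 no gene passed in either direction, with 2142 at an unadjusted p under 0.05, and among the odd-count libraries 9 rose and 2 fell. The number that rose was 103 without HFD 4, 278 without HFD 5, 106 without HFD 6, 115 without CD 2, 330 without CD 3, 257 without CD 4 and 294 without CD 5. The number that fell was 338 without HFD 2, 9 without HFD 4, 52 without HFD 5, 5 without HFD 6, 337 without CD 1, 22 without CD 2, 96 without CD 3, 68 without CD 4 and 110 without CD 5. All-even counts moved with diet, in 4 of the 5 HFD and none of the 6 CD libraries, and their part in the diet calls was not tested further.

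Among the 5 genes with the smallest diet p in each direction, Ndufa4, a subunit of the respiratory chain, had a log2 difference (HFD minus CD) of 1.93 ± 0.31, Cox6b2 of cytochrome oxidase 1.59 ± 0.26, the import chaperone gene Timm8b 1.64 ± 0.27, Rbx1 of cullin ligases 1.64 ± 0.28 and Ccdc122 1.58 ± 0.26 (edgeR, adjusted p = 0.0150 for each). Those that fell were Ung, a uracil-DNA glycosylase (−1.97 ± 0.33), E2f4, a cell-cycle transcription factor (−1.36 ± 0.25), Sh2d3c (−1.94 ± 0.37), Gpr3, the receptor that maintains meiotic arrest (−1.37 ± 0.28), and Tmem104 (−3.72 ± 0.76). Tmem104 stood at 22.0 CPM in CD replicate 3 and at 0.348 to 3.04 CPM in the other Mos-high libraries, and its difference was −2.58 without CD replicate 3. For each of these 10 the call ended without HFD replicate 1. Of the 73 OXPHOS genes 30 rose and 1 fell, and 15 of 59 ribosomal protein genes rose, where 4.74% of all tested genes rose and 2.1% fell. Of the 34 maternal-effect genes 3 rose and 8 fell. Genes called for diet and genes apart by class shared 72 members, 10.04% of the diet calls and 4.30% of the genes apart, and 16.0% of all tested genes were apart.

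Genes apart by class differed in length. The median annotated transcript of the higher genes was 2176 nt, that of the lower genes 3363 nt and that of all tested genes 3113 nt. The 3′ untranslated regions had medians of 774, 1273 and 1163 nt. Over 5 classes of transcript length from short to long, the median log2 difference was 0.25, 0.15, −0.03, −0.22 and −0.35. The share apart and higher went from 14.4% to 2.93%, and the share apart and lower from 6.49% to 9.24%. After the length trend of each library was subtracted, Gdf9 had a log2 difference of −3.73, H1foo −2.88 and Fth1 3.41.

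Reads that the counter could not give to 1 gene were compared between the classes as 4 shares, each by an exact permutation test over the 330 arrangements of the labels. Reads overlapping more than 1 gene made up 0.220% ± 0.0168 (SD, n = 4) in Mos-low and 0.151% ± 0.0143 (n = 7) in Mos-high, without overlap (two-sided exact permutation test, p = 0.00303, the smallest the design allows; adjusted p = 0.0121). This share held in each diet, at 0.214% against 0.155% in CD and 0.227% against 0.147% in HFD. Reads aligned to more than 1 place made up 29.0% against 24.2% (exact permutation p = 0.0697; adjusted 0.0909), and reads overlapping no gene 39.0% against 41.0% (exact permutation p = 0.0909; adjusted 0.0909). All unassigned reads together, the sum of the 5 tallies, made up 68.2% against 65.4% (exact permutation p = 0.0515; adjusted 0.0909). These 3 differences did not pass the test. The classes compared were set from Mos and Zp3 of the same libraries, and all 4 p-values carry that limit.

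Markers of cells that can cling to an egg were followed by summed CPM, their genes at 0 being given beside them. Cumulus and granulosa markers summed to 369 to 450.2 CPM in Mos-low and 926 to 1823 CPM in Mos-high. Serpine2 made up 69.3% of their mean sum over the 11 libraries. Without Serpine2 the sums were 294 to 331 and 222 to 381 CPM and overlapped, and 8 of 36 markers, among them Amh, Ptx3 and Areg, had no count in any of the 11 libraries. Oviduct markers summed to 13.7 to 40.5 and 44.9 to 221 CPM. The adhesion gene Cdh1 made up 81.3% of their mean sum over the 11 libraries. Without Cdh1 the sums were 11.5 to 37.6 and 7.16 to 13.3 CPM. Of 5 tested oviduct markers 3 were above 0 and 2 below. Krt8 (3.38 ± 0.97), named after its value was seen, was apart and higher (8.0% over all genes). Cdh1 (−4.93 ± 0.46) was apart and lower (7.98%). Ovgp1 (3.87 ± 1.11) overlapped between the classes and was at 2.30 without HFD replicate 1. Stromal and endothelial markers summed to 31.1 to 42.8 and 31.8 to 179 CPM, and without Pecam1 to 25.8 to 37.3 and 18.0 to 36.8 CPM, with Des and Cdh5 at 0. Blood and immune markers summed to 9.12 to 14.1 and 3.84 to 9.23 CPM, with 10 of 19 at 0. The part of other cells in the class differences was not tested.

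HFD replicate 3 resembled neither class throughout. Among the 838 genes higher in Mos-low it lay inside the Mos-low range for 238, beyond it for 386, between the ranges for 134, inside the Mos-high range for 79 and beyond that for 1. Among the 836 lower genes it lay inside the Mos-high range for 375, beyond it for 146, between the ranges for 204, inside the Mos-low range for 100 and beyond that for 11. Thus it held Gdf9 at 5489.6 CPM and Ooep at 2987 CPM, high as in Mos-high or above it, together with Fth1 at 341 CPM, Ttk at 238 CPM, Spc25 at 294 CPM and Otub1 at 241 CPM, near or above the Mos-low levels.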

How the data were processed

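RNA was measured in 12 libraries of pooled oocytes, made as full-length cDNA with SMART-Seq v4 and tagmented with Nextera XT, per the labels' protocols, a chemistry without strand information. Deposited were raw whole-number read counts for 24062 gene symbols, with 5 tallies of unassigned reads that stayed out of library sizes and gene tests (62.3% to 71.7% of tallied reads in the 11 libraries). Per the submitters' processing notes, STAR, HTSeq 1.0.0, DESeq2 1.0.19 and mm10 were named, and how reads were assigned is not given there. All-even counts were used as deposited. Without molecular identifiers, counts are not independent molecules.

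The members and the 20 gene lists were chosen with earlier results of these data known. CPM is a gene's count scaled to 1000000 gene counts per library. Differences came from edgeR 4.0.16 (R 4.3.3) with TMM factors, edgeR's filter on low counts, and diet and class as terms. The filter left out 13583 genes, 7410 of them without a count in the 11 libraries. A prior count of 2 was used for log2 CPM in the correlations, the principal components and the limma and length alternatives. SE was derived from the log2 difference and its F statistic. Diet and the interaction used the robust quasi-likelihood test, adjusted by Benjamini-Hochberg over 10479 genes at 0.05. Ranges were compared on CPM. Symbols were matched to GENCODE M21 (mm10), 23665 of them, with 397 unmatched, and motifs were searched where a 3′ untranslated region was at least 100 bases long. Named genes were the defining genes, the 12 largest differences each way at a mean of at least 20 CPM among genes apart, all metaphase arrest genes, the 3 largest of each list (the 3 most abundant of each marker list) and the 5 smallest diet p each way, of which a few are not reported here. The fits were tested on simulated counts. Alternatives were DESeq2 1.42.0, other size factors, no filter, limma 3.58.1, halved even counts, a length correction, no diet or class term, no Zp3 limit and each library left out. Chosen after seeing the data were the splits by even counts, overlap on TMM-scaled CPM and the motif windows.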

Additional observations from a re-analysis of the deposited data

Results flagged for a closer look

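Dixon's test at the 95% level would flag about 11.9 of 238 tests (1 in 20) where values are normally distributed. It was run mainly on genes picked from these data, so an excess over that number cannot be judged. Single libraries stood apart from the other libraries of their class in 27 of the 238 tests. CD replicate 3 gave 9 of these among the Mos-high libraries, always as the highest: P4hb 367 CPM (the others 58.1 to 189), Arcn1 1060.3 (102 to 448), Rps6ka1 28.3 (1.04 to 8.68), Slc11a2 49.1 (8.35 to 21.5), Casp2 25.0 (5.65 to 11.1), Pecam1 145 (10.3 to 39.3), Tek 9.26 (1.01 to 4.06), Sh2d3c 273 (23.1 to 101) and Tmem104 22.0 (0.348 to 3.04).

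The highest Mos-high library was HFD replicate 4 for Mos at 1453 CPM (the others 115 to 620.1), Ooep at 1565 (149.8 to 666) and Ube2a at 23.01 (4.68 to 10.2), and HFD replicate 5 for Ndufa4 at 381 (42.4 to 117). It was CD replicate 1 for Trim28 at 216 (57.3 to 116) and Lsm14b at 405 (54.8 to 198).

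Among the 4 Mos-low libraries, HFD replicate 1 was highest for Mos at 8.41 CPM (the others 3.74 to 4.07), Rpl13 at 6.96 (1.11 to 2.10), Epcam at 4.93 (1.11 to 1.48), Ndufa4 at 433 (113 to 162) and Ccdc122 at 159 (43.0 to 62.3). HFD replicate 2 was highest for Ube2a at 174 (101 to 111) and lowest for Bub1b at 12.4 (17.3 to 18.0) and Tppp3 at 4.07 (6.78 to 7.32). CD replicate 4 was lowest for Smc3 at 5.26 (14.04 to 15.7) and Sall4 at 4.09 (7.62 to 8.14). CD replicate 2 was highest for Chaf1b at 5.34 (4.44 to 4.49) and alone held a count of Eif1a, at 0.0989 CPM.

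The class difference depended on diet for Blvra, by −3.23 log2 units (HFD minus CD), and for Btla, by 6.72. HFD replicate 3, which no comparison of the classes uses, held Zp3 at 4704 CPM.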

How the results depend on the processing

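Between the classes, 2195 of 2239 alternative values of the named genes stayed within the replicate spread and 44 moved. The sign changed in 53 values of 21 genes, none of them apart, as for Ccnb1 (−0.06) and Ccnb2 (−0.18) in the even-count libraries. With each library left out, 857 to 1051 genes were apart and higher and 829 to 984 apart and lower. Without the Zp3 limit, which adds HFD replicate 3 to Mos-high, 221 were higher. Among the even-count libraries 1900 were higher and 1538 lower, and among the others 1296 and 1704, with fewer libraries to overlap. Median log2 differences moved as follows, the cause not being tested. Without the filter they were −0.24 for oocyte transcription, −0.52 for iron, −0.26 for stress and −0.23 for apoptosis genes. With length trends removed they were −1.17 for secreted factors, −0.19 for oocyte transcription, −0.48 for iron and −0.56 for DNA methylation genes. Without the Zp3 limit they were −1.53 for secreted factors, 0.12 for oocyte transcription and −0.89 for ribosomal proteins. In the even-count libraries they were −0.44 for oocyte transcription, 0.26 for storage, −0.47 for iron, −0.34 for proteasome, −0.29 for DNA methylation, 0.44 for stress and 0.30 for apoptosis genes. In the odd-count libraries they were 0.42 for oocyte transcription, −0.52 for linker histone, −0.43 for decay, −0.19 for storage, −0.89 for early-embryo and −0.38 for stress genes. With each library left out they ranged from −0.41 to 0.11 for oocyte transcription, −0.74 to −0.38 for early-embryo, −0.42 to −0.059 for iron and −0.34 to 0.21 for stress genes. The CPE gap was 18.8 points in the even-count libraries, 11.5 over 50 bases and 28.4 over 200.

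Diet calls higher and lower were 202 and 330 with total counts, 682 and 510 without the filter, 851 and 560 with DESeq2, 9 and 2 in the odd-count libraries, 0 and 0 without the class term, and 0 to 665 and 0 to 338 with each library left out. Interaction calls were 2 higher with total counts, 33 and 22 without the filter, 5 and 5 with DESeq2, and 0 to 3 and 0 to 2 with each library left out. Of the read shares, the ambiguous one kept its call with each library left out (0.0610 to 0.0732 points; exact permutation p = 0.00476 to 0.00833). The others ranged from −2.40 to −1.21 points for no gene, 2.86 to 5.78 for more than 1 place and 1.71 to 3.46 for all unassigned reads. They passed an unadjusted 0.05 without HFD 6 (all 3), HFD 5 (the latter pair) or CD 2 (all unassigned reads alone). With the replicate number as a block 321 genes were higher and 127 lower in HFD. Same-numbered libraries deviated together at r = 0.166, 0.0545, −0.0291, −0.105 and −0.00772 for numbers 1, 2, 4, 5 and 6, and 1 of 5 matched its own number best. Each diet had 2 Mos-low libraries, whose deviations from their mean mirror each other. The check therefore cannot decide whether the numbers pair the samples. Depth limits genes at a few CPM, such as Chaf1b and Sumo2, whose levels rest on few reads.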
